A study of Mus musculus with 6 samples.

Results

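The corticotropin-releasing hormone system was examined as a set of 5 genes among the 27998 genes measured in single cells of the mouse preoptic region: the ligands Crh and Ucn3, the binding protein Crhbp, and the receptors Crhr1 and Crhr2. The genes were taken by name, and all 5 were found in the table and in the annotation. Raw molecule counts were read in every cell with at least 500 detected genes and at most 20% of its counts from mitochondrial genes. Crh lies on chromosome 3 (19693401 to 19695396), Ucn3 (3940688 to 3945349) and Crhbp (95431371 to 95444924) on chromosome 13, Crhr1 on chromosome 11 (104132855 to 104175523) and Crhr2 on chromosome 6 (55090049 to 55133016). These are GRCm38 positions in GENCODE M21; all 5 genes are protein-coding and none overlaps another annotated gene.

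Corticotropin-releasing hormone, the product of Crh, is a peptide best known as the hypothalamic trigger of the pituitary stress response, and it also acts as a local transmitter in many other brain areas. It signals mainly through the CRH receptor type 1, whereas urocortin 3, the product of Ucn3, is selective for the type 2 receptor; both are G protein-coupled receptors that raise cyclic AMP. The binding protein encoded by Crhbp is secreted, holds CRH with high affinity and limits how much of it reaches a receptor, and it binds urocortin 3 poorly.

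The samples were 3 female and 3 male libraries, and the labels name no mutation, drug or treatment. Each library was made from the dissected preoptic region of 3 pooled mice, aged 60 to 70 days and kept singly for 3 days, dissociated with protease, sorted for live cells and prepared on the 10x Chromium platform. A library is therefore 1 pool, the unit of replication throughout, and animals within it cannot be told apart. The sexes were the only groups compared in the design; the other comparisons set cells against cells within the same libraries.

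Of 31299 barcodes, 30824 passed, with 1962 to 9749 cells in 5 libraries and 410 in female library 3, whose total of 1245003 unique molecular identifiers (UMIs, 1 per captured RNA molecule) compares with 8779199 to 80803910 in the others. Female library 3 was kept in the main results, and some of them are also given without it. The remaining 29822 cells after removal of called doublets comprised 15069 inhibitory and 3230 excitatory neurons, with oligodendrocytes, their precursors, astrocytes, microglia, endothelial and mural cells making up most of the rest. A total of 479 barcode sequences occurred in more than 1 library. Levels are given as CPM, the UMIs of a gene per 1000000 UMIs of all genes summed in a library or class, so that fewer cells carrying a gene and less RNA per cell cannot be told apart.

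The sequence upstream of the start is shown for 2 members, Ucn3 because its transcript was held by the fewest neurons and Crhr2 because its transcript went together with that of Crhbp. Each run is the 250 bases before the RefSeq start, read 5′ to 3′ along the minus strand of GRCm38.p6, chr13:3945350-3945599 for Ucn3 and chr6:55133017-55133266 for Crhr2. The only capitals mark TATAAA, which 12.4% of 32851 mouse windows of this length contain on either strand.
Ucn3: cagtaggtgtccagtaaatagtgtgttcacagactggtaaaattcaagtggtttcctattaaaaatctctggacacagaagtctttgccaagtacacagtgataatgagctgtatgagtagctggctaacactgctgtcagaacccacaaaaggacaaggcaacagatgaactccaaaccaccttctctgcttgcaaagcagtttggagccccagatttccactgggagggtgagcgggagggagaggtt
Crhr2: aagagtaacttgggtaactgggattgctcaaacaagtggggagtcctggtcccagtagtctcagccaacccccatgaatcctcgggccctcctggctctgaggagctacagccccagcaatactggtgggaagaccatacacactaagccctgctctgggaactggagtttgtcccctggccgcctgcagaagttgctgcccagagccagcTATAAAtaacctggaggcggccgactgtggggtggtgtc
TATAAA was found in the Crhr2 window and not in those of Ucn3, Crhbp or Crhr1. The motif TGACG, part of the cyclic AMP response element, searched on both strands and present in 17.8% of windows, occurred in that of Crhbp and in none of the others. The Crhbp window, chr13:95444832-95445081, reaches into the gene as placed by GENCODE M21, which ends at 95444924. The motif lies in that overlapping part, so it is upstream of the RefSeq start only. Windows for 4 of the 5 members were matched, and a match describes these letters only.

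All 5 transcripts were counted mostly in neurons, which held 66.4% of the UMIs of all genes. Of the members, neurons held 89.8% of the 6151 Crh UMIs, 92.3% of the 1747 Ucn3 UMIs, 94.4% of the 2012 Crhbp UMIs, 90.2% of the 519 Crhr1 UMIs and 93.1% of the 378 Crhr2 UMIs. The ligands and the binding protein reached high counts in single cells, up to 100 UMIs for Crh, 260 for Ucn3 and 54 for Crhbp. Receptor counts never exceeded 3 UMIs per cell for Crhr1 and 4 for Crhr2, so a neuron without a receptor UMI cannot be read as lacking the receptor. Neurons were therefore called positive from 3 UMIs for the ligands and Crhbp and from 1 UMI for the receptors, and negative at 0. This gave 471 Crh, 59 Ucn3, 196 Crhbp, 441 Crhr1 and 302 Crhr2 neurons among 18299.

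Against mature oligodendrocytes, the largest class without a known role in this system, neurons were higher for each of the 3 members that could be tested over all 6 libraries (edgeR quasi-likelihood, Benjamini-Hochberg adjusted over all genes tested). The log2 difference was 3.48 ± 0.17 for Crh (SE, adjusted p = 9.527e-10), 3.13 ± 0.23 for Crhbp (adjusted p = 4.428e-08) and 3.42 ± 0.41 for Crhr1 (adjusted p = 4.434e-06), each in 6 of 6 libraries. In this comparison 84.2% of all genes tested were called, and 42.8% were higher in neurons. Without female library 3, Ucn3 and Crhr2 could be tested too and were also higher in neurons, by 3.97 and 4.23 on the log2 scale. Against astrocytes, Crh alone could be tested and was higher in 6 of 6 libraries, by 2.40 ± 0.30 (adjusted p = 1.11e-05), where 52.1% of all genes tested were called. The share of oligodendrocytes with a UMI was low for each member: 1.097% for Crh, 0.203% for Ucn3, 0.488% for Crhbp, 0.102% for Crhr1 and 0.0406% for Crhr2, at a median depth of 4670 UMIs. Inhibitory neurons, with a median depth of 6776 UMIs, held a UMI in 6.35% of cells for Crh, 0.491% for Ucn3, 4.06% for Crhbp, 2.60% for Crhr1 and 1.59% for Crhr2. Excitatory neurons, with a median depth of 8041 UMIs, held one in 6.69%, 2.42%, 4.49%, 1.52% and 1.92% of cells. Thinned to 1500 UMIs, the shares of inhibitory and excitatory neurons were 3.05% and 2.57% for Crh, 1.39% and 1.12% for Crhbp, 0.667% and 0.403% for Crhr1 and 0.420% and 0.341% for Crhr2. For Crh, Crhbp and Crhr2 the order of the classes thus differed between full and thinned depth.

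**Figure D1:**
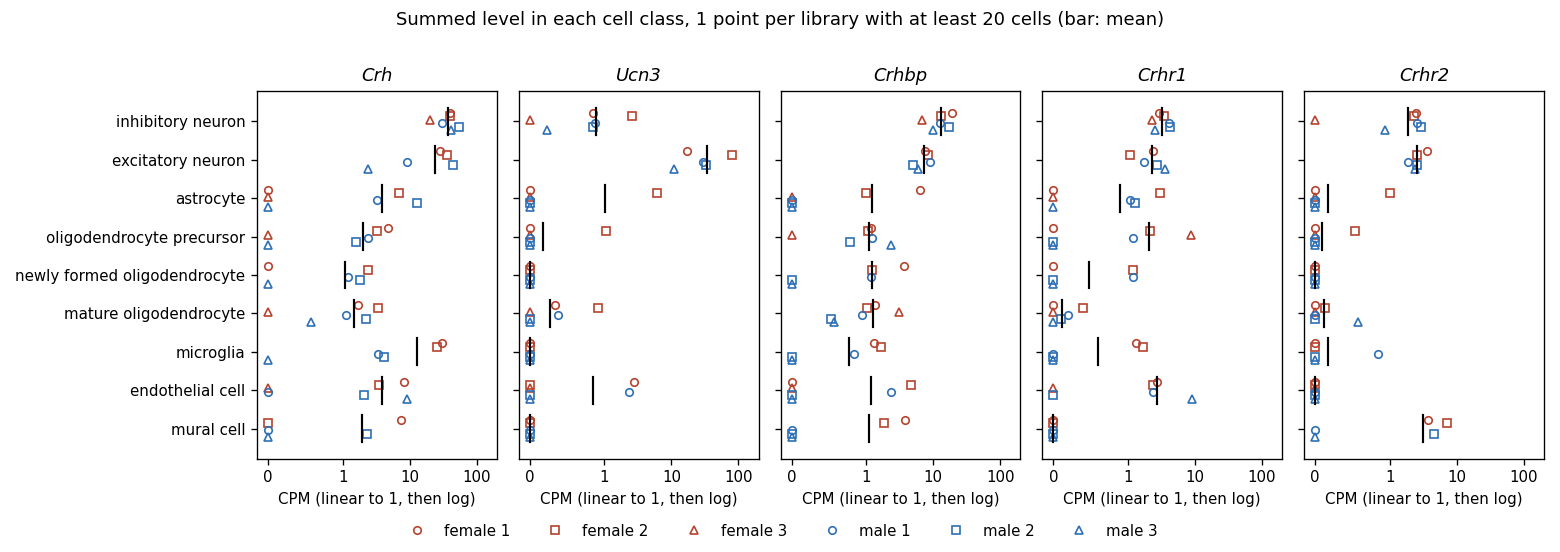
Level of each member in 9 cell classes, with 1 point per library that had at least 20 cells of the class and a bar at the mean; the axis is linear up to 1 CPM and logarithmic above. Ucn3 is highest in excitatory neurons, Crh and Crhbp in both neuron classes, and Crhr2 alone has a mean above 2 CPM in mural cells.

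Crh was counted in both neuron classes. In inhibitory neurons it measured 40.0, 40.4 and 20.3 CPM in female libraries 1 to 3 and 30.01, 54.3 and 41.1 CPM in male libraries 1 to 3. In excitatory neurons it measured 28.4 and 36.3 CPM in female libraries 1 and 2 and 9.28, 44.8 and 2.40 CPM in the male libraries; female library 3 had too few of these cells. Inhibitory neurons were the higher class in all 5 libraries with both, though the ranges of the classes overlapped. The log2 difference was 0.54 ± 0.14 (adjusted p = 0.004516, edgeR with library as a block), and the call was lost with DESeq2 (1.14, adjusted p = 0.1282) and without the block (0.59, adjusted p = 0.245). Of the Crh-positive neurons, 403 were inhibitory and 68 excitatory, an inhibitory share of 88.8% ± 8.19 (SD, n = 5 libraries) beside 83.4% ± 2.84 of all neurons. Both shares come from the same libraries, and their difference was not tested in pairs.

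Crh-positive neurons were scattered over 28 of 30 neuron clusters made without the members or the listed peptides and factors. The level was highest in cluster 4, led by Id2, Aldoc and Pnoc, at 120 ± 31.6 CPM (SD, n = 5 libraries), where 59 of 699 cells (8.44%, exact 95% interval 6.49 to 10.8%) were positive. Cluster 13, led by Serpinb1b and Lhx8, followed with 111 ± 23.9 CPM, and cluster 19, led by Wnt2 and Prok2, with 97.9 ± 49.6 CPM; these neighbours lay within each other's spread. The highest mostly excitatory cluster, 6, led by Sst, Fam46a and Otp, measured 87.7 ± 107 CPM and so varied most between libraries. Across the 30 clusters the gene most like Crh was Pde11a, a cyclic nucleotide phosphodiesterase, with Pearson's r = 0.719 on log2(CPM + 1), a description over clusters from the same 6 libraries.

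**Figure D2:**
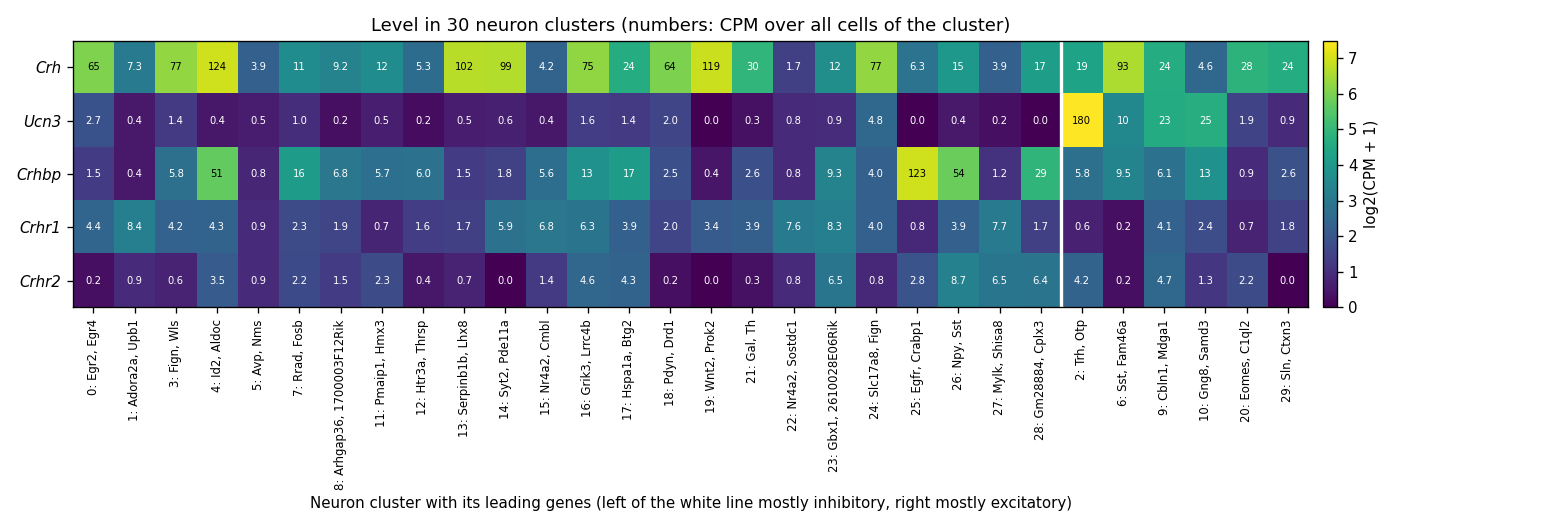
Heatmap of the 5 members (rows) over 30 neuron clusters (columns, with leading genes), coloured by log2(CPM + 1) and labelled with CPM over all cells of a cluster. Ucn3 peaks in cluster 2 at 180 CPM, Crhbp in cluster 25 at 123 CPM and Crh in cluster 4 at 124 CPM, whereas neither receptor exceeds 9 CPM in any cluster.

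Summed per library, Crh-positive neurons differed from Crh-negative ones in several other peptides. Tac2, the neurokinin B precursor, measured 154 and 145 CPM in Crh-positive neurons of female libraries 1 and 2 and 165, 386 and 223 CPM in the male libraries, against 34.6 to 60.1 CPM in Crh-negative neurons. The groups did not overlap, and Tac2 was higher by 2.29 ± 0.09 on the log2 scale (adjusted p = 2.479e-36). The neurotensin gene Nts measured 384 to 849 CPM against 182 to 243 CPM, a log2 difference of 1.33 ± 0.05, and the prodynorphin gene Pdyn 62.8 to 80.0 CPM against 26.2 to 49.3 CPM, a difference of 1.03 ± 0.10. Cartpt (0.85 ± 0.07) and Tac1 (0.27 ± 0.05) were higher as well, and these 5 peptides rose in 5 of 5 libraries and were called by DESeq2 too. Peptides of other neuron groups were lower: Npy by -3.21 ± 0.11, Sst by -2.46 ± 0.08, Avp by -2.42 ± 0.08, Gal by -2.03 ± 0.09 and Trh by -1.86 ± 0.12, each in 5 of 5 libraries. Of the 25 listed peptides tested, 5 were called higher and 10 lower, with a median of -0.09 beside -0.01 over all genes; 7.81% of the 11783 genes tested were called in this comparison, 3.49% by DESeq2 and 3.13% by both with 1 direction in every library.

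Transcription factors of neuron identity were unequal as well. Meis2 (0.82 ± 0.06) and Bcl11b (0.83 ± 0.08) were higher in Crh-positive neurons in 5 of 5 libraries. Zic1 (-2.12 ± 0.12), Six3 (-1.43 ± 0.10), Sp9 (-2.64 ± 0.24) and Nfib (-2.60 ± 0.19) were lower in 5 of 5. Of 32 listed fate factors tested, 7 were called higher and 16 lower, and 5 and 12 were also called by DESeq2 with 1 direction in every library. Among excitatory neurons alone the pattern was different for several of these genes, with Gal at 0.70, Nts at 0.23 and Meis2 at -0.25.

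Genes of peptide handling differed by less than 1 log2 unit in Crh-positive neurons. Cadps2, which primes dense-core vesicles for release, was higher by 0.76 ± 0.09, and the granins Scg2 (-0.47 ± 0.05), Chgb (-0.41 ± 0.06) and Chga (-0.28 ± 0.06) were lower, each in 5 of 5 libraries. Pcsk1, a prohormone convertase, was higher in 4 of 5 libraries (0.62 ± 0.15), a call that DESeq2 did not make. In the list of receptor signalling genes, 1 of 24 was called higher (Pde4d, 0.42 ± 0.09) and 2 lower (Adcy2 in 4 of 5 libraries and Adcy7 in 5 of 5). Median depth was 9746 UMIs in Crh-positive and 6892 in Crh-negative neurons. With every cell thinned to 1500 UMIs, 161 genes were called in place of 920 (563 without female library 2 at full depth), with Tac2 at 2.41, Nts at 1.37 and Npy at -2.73. Summed endothelial markers were 46.3 to 106 CPM in positive and 30.5 to 48.7 CPM in negative neurons, and their part was not tested.

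Outside neurons, Crh was counted in a few cells of several classes. These included 54 of 4922 mature oligodendrocytes (59 UMIs), 16 of 1554 oligodendrocyte precursors (16 UMIs), 14 of 839 astrocytes (20 UMIs) and 2 of 76 macrophages (17 UMIs). In microglia it measured 30.2 and 26.0 CPM in female libraries 1 and 2 and 3.36, 4.14 and 0 CPM in the male libraries. These levels came from 62 UMIs in 17 of 796 cells, and 49 of the UMIs lay in 4 cells with at least 3 each. Those 4 microglia had a median of 14565 UMIs and 11 of 13 neuron markers, against 5143 UMIs and 2 of 13 in microglia without Crh. The only macrophage with at least 3 Crh UMIs had 16 of them and 12 of the 13 neuron markers. The only such astrocyte had 6 Crh UMIs and 11 of the 13 markers.

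Ucn3, the other ligand, was found mainly in glutamatergic neurons. Excitatory neurons measured 16.9 and 80.3 CPM in female libraries 1 and 2 and 29.9, 32.6 and 10.8 CPM in the male libraries, against 0.846, 2.56, 0.872, 0.842 and 0.234 CPM in inhibitory neurons of the same libraries. The classes did not overlap: inhibitory neurons were lower in 5 of 5 libraries, by -4.94 ± 0.12 on the log2 scale (adjusted p = 3.825e-19). In this comparison of neuron classes, 4 of the 5 members were called, beside 35.1% of all genes tested; DESeq2 called 3 of the 5, beside 25.5% of genes. The 5 cells with the most Ucn3 held 36.3% of its UMIs, and the top cell alone had 260 of the 1747, in female library 2.

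Among the 59 Ucn3-positive neurons, 50 were excitatory. They sat mainly in 2 clusters: 27 (45.8%) in cluster 10, led by Gng8, Samd3, Emx2 and Tbr1, and 19 (32.2%) in cluster 2, led by Trh, Otp, Fezf1 and Sim1. Cluster 2 had the higher pooled level, 180 CPM against 24.6 CPM, but 112 ± 131 CPM over its 4 libraries, so the order of the 2 clusters lay within the spread. In both clusters about the same share was positive, 3.37%, with exact 95% intervals of 2.04 to 5.21% and 2.23 to 4.87%. The genes most like Ucn3 over the 30 clusters were Fezf1 (r = 0.867) and Nxph4 (r = 0.805).

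Ucn3-positive neurons were rich in a prohormone convertase. Pcsk1 measured 109, 178, 166 and 87.3 CPM in the 4 libraries with at least 5 positive cells, against 14.1 to 24.4 CPM in Ucn3-negative neurons. It was higher by 2.76 ± 0.26 (adjusted p = 6.977e-23) and still by 1.65 among excitatory neurons alone. The peptide-amidating enzyme gene Pam was higher by 0.92 ± 0.17, in 4 of 4 libraries, but measured -0.24 after thinning. In this comparison 2.53% of 13502 genes were called, 1.05% by DESeq2 and 0.896% by both with 1 direction in every library. Of 12 listed genes of peptide maturation, 5 were called higher and 1 lower; 3 of the 5 were also called by DESeq2 with 1 direction in every library.

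Factors and peptides of these cells differed from those of other neurons. Otp (2.30 ± 0.25), Sim1 (2.69 ± 0.53) and Tbr1 (2.36 ± 0.37), factors of glutamatergic neurons, were higher in 4 of 4 libraries, as were Emx2 (4.05 ± 0.48), Nxph4 (4.02 ± 0.31), Samd3 (3.34 ± 0.36) and Vsig1 (6.47 ± 0.69, from 14 UMIs). Among excitatory neurons alone, Emx2 (2.15), Nxph4 (2.15) and Vsig1 (4.59) were still called, and Otp (0.25), Sim1 (0.20) and Tbr1 (0.54) were not. Trh, the thyrotropin-releasing hormone gene, measured 3461, 785 and 2292 CPM in female library 2 and male libraries 1 and 2, but 173 CPM in female library 1, the same as in its negative neurons at 174 CPM. GABA synthesis and transport genes were lower, Gad1 by -2.55 ± 0.22 and Slc32a1 by -2.58 ± 0.25, and so were Sst (-2.95 ± 0.23) and Avp (-4.18 ± 0.26). The median over all genes was -0.16 here, and 27 listed peptides tested gave 3 calls higher and 13 lower. Thinning left 62 calls of 341, and leaving out female library 1, female library 2 or male library 1 left 218, 157 or 197.

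Crhbp, the gene of the binding protein, had a higher summed level in inhibitory than in excitatory neurons. In inhibitory neurons it measured 18.9, 13.1 and 6.75 CPM in female libraries 1 to 3 and 12.7, 17.0 and 9.82 CPM in the male libraries; in excitatory neurons it measured 7.47 and 8.35 CPM in female libraries 1 and 2 and 9.10, 5.06 and 6.01 CPM in the male ones. Inhibitory neurons were higher in 5 of 5 libraries, by 0.95 ± 0.14 on the log2 scale (adjusted p = 8.674e-06). Of the 196 Crhbp-positive neurons 178 were inhibitory, a share of 89.7% ± 6.46 (SD, n = 5 libraries) beside 83.4% ± 2.84 of all neurons. It was 92.9% and 87.5% in female libraries 1 and 2 and 90.9%, 97.2% and 80% in the male libraries. Male library 3 had only 5 such neurons. The 2 shares come from the same libraries, and their difference was not tested in pairs.

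Crhbp was concentrated in 3 inhibitory clusters. Cluster 25, led by Egfr, Crabp1, Igfbp4 and the choline transporter gene Slc5a7, measured 121 ± 53.5 CPM (n = 5 libraries), with 29 of 320 cells positive (9.06%, exact 95% interval 6.15 to 12.8%). Cluster 26, led by Npy, Sst and Sfrp1, measured 54.5 ± 18.1 CPM (n = 4). Cluster 4, which also had the most Crh, measured 45.6 ± 25.7 CPM and held 54 of the positive neurons (27.6%). Levels of clusters 26 and 4 did not differ beyond their spread. The genes most like Crhbp over the clusters were Asl (r = 0.77) and Moxd1 (r = 0.75).

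Neurons with Crhbp were marked by somatostatin and neuropeptide Y. Sst measured 5341 and 6284 CPM in Crhbp-positive neurons of female libraries 1 and 2 and 3139, 6976 and 6718 CPM in the male libraries, against 286 to 531 CPM in Crhbp-negative neurons. Npy measured 3576 CPM at least in each library against at most 108 CPM in negative neurons. Neither overlapped: Sst was higher by 3.95 ± 0.07 and Npy by 6.12 ± 0.07, and after thinning by 3.91 and 5.93. Lhx6 (1.71 ± 0.18) and Sp9 (1.69 ± 0.15), factors of ganglionic eminence interneurons, Nxph1 (1.71 ± 0.10), Igfbp4 (3.45 ± 0.13) and Sfrp1 (2.75 ± 0.18) were higher as well, each in 5 of 5 libraries. In this comparison 12.9% of 11464 genes were called, 5.46% by DESeq2 and 4.8% by both with 1 direction in every library.

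The remaining listed peptides were mostly lower in Crhbp-positive neurons. Of 25 tested, 5 were called higher and 14 lower, with a median of -0.93 beside -0.03 over all genes. Vip (-4.63 ± 0.26), Avp (-4.33 ± 0.12) and Penk (-1.79 ± 0.09) were lower in 5 of 5 libraries, as were Meis2 (-2.20 ± 0.13) and the striatal signalling gene Ppp1r1b (-3.93 ± 0.17). Secretory genes differed less: the granin Chga was higher by 0.66 ± 0.07 and the convertase chaperone Scg5 by 0.24 ± 0.07. Tsc22d3, a gene induced by glucocorticoids, was higher by 0.72 ± 0.11 and Per1 lower by -1.22 ± 0.29, both in 5 of 5 libraries; in the corticosteroid list 1 of 10 genes was called higher and 2 lower. Positive neurons were deeper, with a median of 12031 against 6886 UMIs, and summed astrocyte markers were 311 to 525 CPM in them against 213 to 233 CPM; thinning left 128 of 1481 calls, leaving out female library 1 or 2 left 913 or 928, and the part of the astrocyte markers was not tested.

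**Figure D3:**
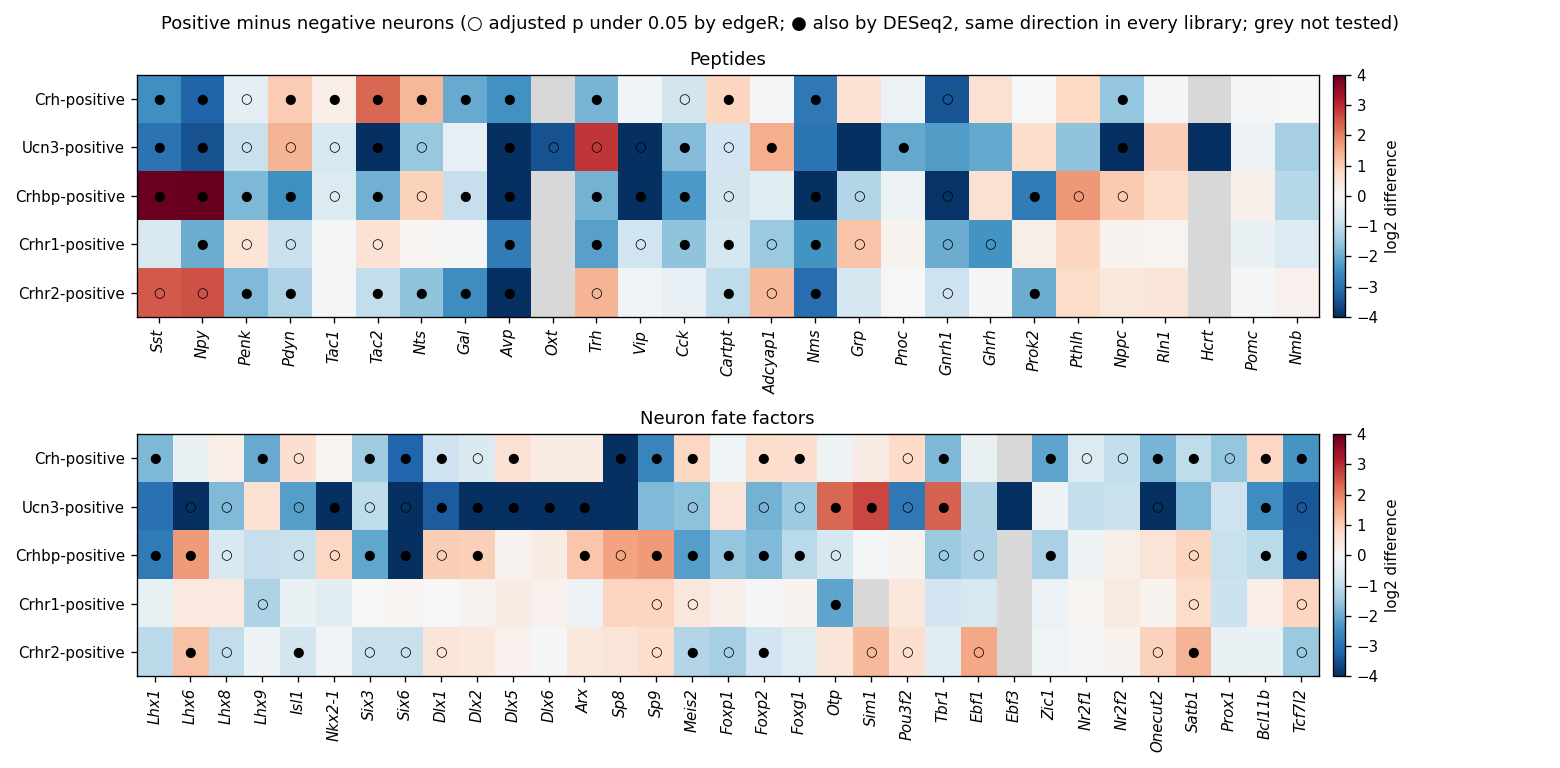
Log2 difference between neurons positive and negative for each member (rows) for every listed peptide (upper panel) and fate factor (lower panel) that was tested, with colours capped at 4. Open circles mark an adjusted p under 0.05 by edgeR and filled circles a gene that DESeq2 also called and that had 1 direction in every library; Sst and Npy are filled and red for Crhbp, and Tac2, Nts and Pdyn for Crh.

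Crhr1, the receptor of CRH, was thinly spread. It measured 2.94, 3.48 and 2.25 CPM in inhibitory neurons of female libraries 1 to 3 and 4.15, 4.31 and 2.57 CPM in those of the male libraries; in excitatory neurons it measured 2.35 and 1.08 CPM in female libraries 1 and 2 and 1.72, 2.76 and 3.60 CPM in the male ones. Inhibitory neurons were higher in 4 of 5 libraries and lower in male library 3, and the fitted log2 difference was 1.04 ± 0.23 (adjusted p = 0.001134). Its levels over clusters ranged from 0.231 to 8.42 CPM. Clusters 1 (Adora2a, Penk), 23 (Gbx1, Satb1) and 27 (Mylk, Tshz1, Foxp2) had 7.57 ± 3.69, 8.35 ± 0.782 and 7.83 ± 1.62 CPM and did not differ beyond their spread.

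Few genes were called between Crhr1-positive and Crhr1-negative neurons, and a negative neuron cannot be read as lacking the receptor. In this comparison 2.19% of 11733 genes were called and 0.801% by DESeq2; 82 genes other than Crhr1 (0.707% with it) were called by both with 1 direction in every library. Dach1 (0.88 ± 0.18), Mn1 (0.68 ± 0.13) and Nacc2 (0.68 ± 0.15) were higher in 5 of 5 libraries. Avp measured 32.4, 237, 81.0, 49.9 and 29.5 CPM in the 5 libraries against 350 to 1300 CPM in negative neurons, without overlap, and was lower by -2.79 ± 0.13. Npy (-1.99 ± 0.14), Cck (-1.61 ± 0.15), Cartpt (-0.68 ± 0.09) and Scg2 (-0.43 ± 0.05) were lower in 5 of 5. The enkephalin gene Penk was higher in 4 of 5 libraries (0.54 ± 0.09), a call DESeq2 did not make, and Trh (-2.16 ± 0.16) was -0.55 and not called among inhibitory neurons alone. Median depth was 8190 UMIs in positive and 6972 in negative neurons; thinned, 19 genes of 257 were called, without library as a block 6, and without female library 2 135.

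Crhr2, the receptor of urocortin 3, did not favour either neuron class. It measured 2.49, 2.27 and 0 CPM in inhibitory neurons of female libraries 1 to 3 and 2.53, 2.90 and 0.935 CPM in those of the male libraries; in excitatory neurons it measured 3.63 and 2.55 CPM in female libraries 1 and 2 and 1.89, 2.53 and 2.40 CPM in the male ones. The difference was -0.07 ± 0.21 (adjusted p = 0.8478), inhibitory neurons being higher in 2 of 5 libraries. Its highest cluster was 26, led by Npy, Sst and Sfrp1, at 8.52 ± 1.28 CPM (n = 4), where 47 of 671 cells held a UMI (7.004%, exact 95% interval 5.19 to 9.21%). Clusters 23 (6.89 ± 3.02 CPM), 27 (5.75 ± 3.34 CPM) and 28, led by Moxd1 among others (6.50 ± 6.52 CPM), did not differ from it beyond their own spread. The genes most like it were Mcc (r = 0.694) and Tacr1 (r = 0.665), the substance P receptor gene.

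Crhr2-positive neurons held more Crhbp than other neurons did. Crhbp measured 61.7 and 98.7 CPM in Crhr2-positive neurons of female libraries 1 and 2 and 24.8, 113 and 0 CPM in the male libraries, against 11.95 ± 2.52 CPM in Crhr2-negative neurons. It was higher in 4 of 5 libraries, by 2.65 ± 0.15 (adjusted p = 2.939e-63); male library 3, the exception, had 6 Crhr2-positive neurons. DESeq2 gave 2.28, thinning 2.87 and inhibitory neurons alone 2.88, all called, whereas excitatory neurons alone gave 0.08 (adjusted p = 0.9979). Crh was lower in 5 of 5 libraries, by -2.47 ± 0.26 (adjusted p = 5.943e-19), at 25.1, 4.18, 2.06, 1.77 and 0 CPM. In this comparison 3 of 4 tested members were called, beside 3.28% of 11642 genes by edgeR, 0.91% by DESeq2 and 0.722% by both with 1 direction in every library; Ucn3 (-2.14) was not called by DESeq2 or without female library 2 (-0.53).

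Beyond the members, Moxd1 and Lhx6 were among the genes higher in Crhr2-positive neurons. Moxd1, a monooxygenase-like gene used as a neuron marker, measured 17.3 and 28.4 CPM in female libraries 1 and 2 and 35.1, 58.5 and 28.9 CPM in the male libraries, against 5.19 to 7.55 CPM, and was higher by 2.43 ± 0.23. Satb1 (1.35 ± 0.15), Lhx6 (1.16 ± 0.18) and the synaptic organiser gene Cbln2 (1.43 ± 0.10) were higher in 5 of 5 libraries, and DESeq2 called all 4. Sst and Npy were higher in 4 of 5 libraries (2.47 ± 0.07 and 2.54 ± 0.08) without a DESeq2 call; among inhibitory neurons alone they measured 3.17 and 2.71, and among excitatory ones -4.74 and -0.83. Trh (1.37 ± 0.08) and Adcyap1 (1.29 ± 0.16) were called higher over all neurons but measured -0.29 and -0.03 among inhibitory neurons alone. Avp (-4.63 ± 0.12), Gal (-2.49 ± 0.12), Penk (-1.77 ± 0.08), Nts (-1.61 ± 0.10) and Meis2 (-1.16 ± 0.10) were lower in 5 of 5. Median depth was 8439 UMIs against 6978, and summed mature oligodendrocyte markers ranged from 249.1 to 1616 CPM against 252 to 503 CPM, whose part was not tested. Leaving out female library 1 left 254 of 382 calls.

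Outside neurons, receptor UMIs were few. Crhr2 measured 3.74 and 7.29 CPM in mural cells of female libraries 1 and 2 and 0, 4.66 and 0 CPM in those of the male libraries, from 7 UMIs in 5 of 451 cells. These 5 cells had a median of 2 of 13 neuron markers, as did mural cells without Crhr2. No Crhr2 UMI was found in 490 endothelial cells, which allows a share of cells with a UMI of up to 0.612%, and no Crhr1 UMI in 451 mural cells, which allows up to 0.665%. At median depths of 3728 and 3380 UMIs these limits concern cells with a UMI, not cells that express the receptor. Crhr1 had 5 UMIs in endothelial cells, 7 in oligodendrocyte precursors and 5 in astrocytes. Over the 55 pairs of neighbouring classes in the order of each member's level, none passed an exact two-sided sign-flip test (smallest adjusted p = 0.859), but 5 library pairs cannot go below p = 0.0625 before adjustment, so this test says nothing about which classes differ. Ucn3 in excitatory neurons against astrocytes, for example, was higher in 5 of 5 libraries by 4.25 ± 0.736 (SD) on the log2(CPM + 1) scale.

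How often 2 members met in the same neuron was counted over all neurons and set beside the number expected from each gene's share in each library. Crhbp and Crhr2 were found together in 54 neurons where 12.9 were expected: 10 and 22 in female libraries 1 and 2, 6 and 16 in male libraries 1 and 2, and none in the other two libraries. Crhbp was thus detected in 17.9% of Crhr2 neurons and 3.90% of other neurons. Crh and Crhr2 met in 10 neurons with 20.01 expected, Crh and Crhr1 in 31 with 28.8, Crh and Crhbp in 58 with 49.6, and Ucn3 and Crhr2 in 3 with 2.58. Crhr1 and Crhr2 met in 11 with 7.45 expected. Thinned to 1500 UMIs, Crhbp and Crhr2 met in 5 neurons with 1.01 expected. A deeper cell is likelier to show any pair, and no test is given for these counts, because log odds with 0.5 added are above 0 even where no cell holds both.

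**Figure D4:**
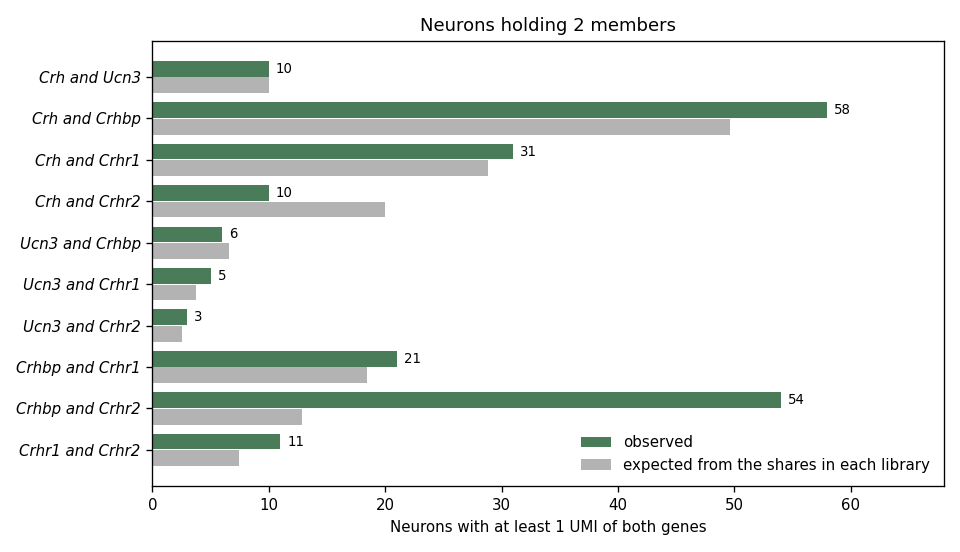
Neurons with at least 1 UMI of both genes for the 10 pairs of members (green bars, number printed) beside the number expected from the shares in each library (grey bars). Crhbp with Crhr2 has 54 neurons against 12.9 expected, and Crh with Crhr2 has 10 against 20.01.

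Seen from Crh-positive neurons, the other members were at or below the level of other neurons. Crhbp measured 2.27, 8.28, 1.57, 13.5 and 0 CPM in them, lower in 5 of 5 libraries than in negative neurons at 13.1 ± 2.87 CPM, by -0.91 ± 0.26 (adjusted p = 0.01266); DESeq2 did not call it (adjusted p = 0.1637). Ucn3 was lower by -3.21 ± 0.45 (adjusted p = 3.376e-08) from 6 UMIs, but was not called without female library 2 (-1.64), and Crhr1 did not pass (-0.16 ± 0.43, adjusted p = 0.8999). Crhr2 had 1 UMI in these neurons and could not be tested. Thus 2 of 3 tested members were called, both lower, beside 3.88% of all genes called lower. Without library as a block no member was called. Counted from 1 UMI of each gene, Crh met Ucn3 in 10 neurons with 9.996 expected and Crhbp in 58 with 49.6. These counts take Crh from 1 UMI and the levels above take it from 3 UMIs. They describe different sets of neurons and cannot be set against each other.

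Seen from Crhbp-positive neurons, the direction of Crh was not settled. Crh measured 7.55, 117, 5.50, 47.5 and 0 CPM there, and 38.8 ± 9.78 CPM in negative neurons. The fitted difference was 0.49 ± 0.16 (adjusted p = 0.02377), yet Crh was higher in only 1 library when set against its own negative neurons, female library 2 alone; without that library it was -1.101, and DESeq2 gave -1.03. Crhr2 measured 9.43, 18.6, 5.50, 15.8 and 0 CPM against 2.02 ± 0.482 CPM, higher in 4 of 5 libraries; it could be tested only among inhibitory neurons, where it was higher by 2.89 (adjusted p = 9.449e-10). In Ucn3-positive neurons none of the 4 other members was called by edgeR or DESeq2, and 1 had an unadjusted p under 0.05. In Crhr1-positive neurons 1 of 3 tested members was called, Ucn3 at -2.47 ± 0.40 (adjusted p = 0.0001281) from 9 UMIs. Without female library 2, Ucn3 was not tested and Crh was called higher instead (0.77), and without library as a block no member was called.

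No member passed the test for a difference between female and male libraries. Over all cells Crh measured 29.8, 32.3 and 7.23 CPM in female libraries 1 to 3 and 19.7, 31.5 and 20.6 CPM in male libraries 1 to 3, with overlapping groups. Ucn3 measured 3.00, 15.8 and 0 CPM against 4.47, 3.46 and 1.14 CPM. Crhbp measured 13.03, 9.17 and 3.21 CPM against 8.29, 8.79 and 5.70 CPM. For these 3 members the female values spanned the male ones, and female library 3 was the lowest library for all 5 members. Crhr1 measured 2.21, 2.38 and 1.61 CPM against 2.69, 2.46 and 1.71 CPM, and Crhr2 2.09, 1.83 and 0 CPM against 1.67, 1.68 and 0.797 CPM. Neurons were 121 of the 410 cells of female library 3, against 2991 of 4630 in female library 1 and 995 of 1962 in male library 3. The part of this share in the levels over all cells was not tested. Over neurons alone, female library 3 was also the lowest for all 5 members, with Crh at 19.4 CPM against 26.0 to 52.7 CPM in the others.

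**Figure D5:**
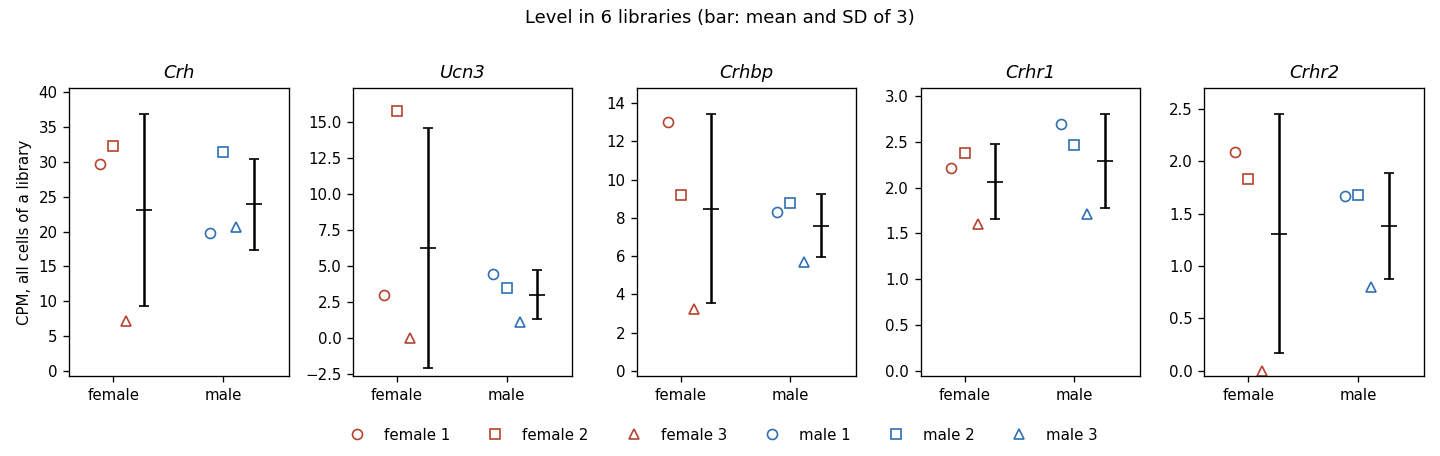
CPM over all cells of each library, by sex, with 1 point per library and the mean and SD of 3 libraries beside them. Female library 3 is the lowest female point for every member, and the Ucn3 mean of the females rests on library 2 at 15.8 CPM.

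The fitted female minus male differences on the log2 scale were 0.11 ± 0.37 for Crh, 1.33 ± 0.74 for Ucn3, 0.35 ± 0.31 for Crhbp, -0.08 ± 0.23 for Crhr1 and 0.29 ± 0.36 for Crhr2 (adjusted p = 1 for each, edgeR). The mean CPM of Crh, Crhr2 and Crhr1 was lower in females, so the fitted sign of Crh and Crhr2 is opposite to that of their means. None of 5 members was called, none had an unadjusted p under 0.05, and DESeq2 called none, beside 0.0434% of 16139 genes called by edgeR, 0.0496% by DESeq2 and 0.0372% with the replicate number as a block. Without female library 2, Ucn3 turned to -0.36, and without female library 3, Crh was 0.35. With female library 3 left out, 1 of the 5 members had an unadjusted p under 0.05, beside 1988 of all genes in place of 383. With cells thinned to 1500 UMIs, 1 of the 5 had, beside 349 genes. No member was called in either setting. In neurons (0.047% of genes called), inhibitory neurons (0.0482%) and excitatory neurons (0.0792%) no member was called by either tool, and DESeq2 called 0.0538%, 0.0482% and 0.0712% of genes there. The smallest unadjusted p of the main edgeR fits was 0.02286, for Ucn3 in inhibitory neurons (1.23 ± 0.47). With the replicate number as a block, 316, 448 and 454 genes were called in those 3 cell sets in place of 7, 7 and 10 (2.12%, 3.09% and 3.59%), and still none of the members.

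Shares of positive neurons did not pass a test either. Crh-positive neurons made up 2.46% ± 0.703 of neurons in females and 2.22% ± 0.869 in males (SD over 3 libraries of each sex), and exact two-sided permutation tests for the 5 members gave p from 0.6 to 1, where 0.1 is the smallest that 3 against 3 allows. For Crhr2 the shares were 1.24% ± 1.08 and 1.28% ± 0.627. Without female library 3, the female minus male difference in percentage points went from 0.245 to 0.650 for Crh, from -0.265 to 0.264 for Crhr1 and from -0.0347 to 0.587 for Crhr2. Among the listed genes, none was called by sex in all cells, neurons or inhibitory neurons, where 383, 943 and 971 of all genes had an unadjusted p under 0.05. In excitatory neurons only the gastrin-releasing peptide gene Grp was called, at 5.55 and 5.88 CPM in female libraries 1 and 2 and 16.2, 22.3 and 14.4 CPM in the male libraries, lower in females by -1.63 ± 0.23 (adjusted p = 0.01943). The call was lost without female library 1, female library 2 or male library 2 and after thinning cells to 1500 UMIs, while the difference stayed between -1.77 and -1.41 over the 5 left-out libraries.

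The other urocortin genes were near the limit of detection. Ucn gave 15 UMIs in all, 3 of them in neurons and the other 12 in 12 of 1554 oligodendrocyte precursors. Ucn2 gave 45 UMIs, 33 of them in neurons, with at most 2 in a cell. No level or comparison is given for either gene.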

How the data were processed

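The authors deposited 1 matrix of raw UMI counts per gene and cell for all 6 libraries, aligned with Cell Ranger 2.0.0 to mm10 per the submitters' processing notes; the annotation, strand setting and cell-calling rule were not given in the sources used here. The number ending each barcode gave its library, per the labels. Cells with under 500 genes or over 20% mitochondrial UMIs (475) and Scrublet doublets (1002, 3.251%) were left out of classes; 479 barcode sequences (963 barcodes) occurred in more than 1 library. Cells were clustered (scanpy 1.11.5, Leiden of igraph 0.11.9) without the members or listed genes, and named from fixed markers.

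UMIs were summed per library and class and tested with edgeR 4.0.16 (quasi-likelihood, TMM, minimum count 10, R 4.3.3), Benjamini-Hochberg adjusted over all genes tested and called under 0.05; classes and positive against negative neurons had library as a block. DESeq2 1.42.0, thinning to 1500 UMIs, other thresholds and leaving out each library were alternatives. The fits were tested on simulated data. P-values take the library pool as the unit. Those of the fits use a spread moderated over genes, so they do not measure a gene's own spread between pools alone. In Crhbp-positive neurons, for example, Crh was called higher although it was lower in 4 of 5 libraries. Same-numbered female and male libraries deviated together (r = 0.542, 0.14 and 0.418), although female 2 and male 1, of different numbers, also had r = 0.373; the sex fits and permutation tests are unpaired, and a fit with the number as a block is given beside them. Named genes were the members, up to 3 called genes per list and direction, up to 6 called peptides per direction, and up to 8 genes per direction with the largest change in every library at 20 CPM or more. The members and lists were chosen with earlier results of these data known, and a listed gene is not reported here. Intervals are exact binomial at 95% and, like limits from a count of 0 (3 counts), cover counting error only.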

Additional observations from a re-analysis of the deposited data

Results flagged for a closer look

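A library lay apart from the others of its group, by Dixon's criterion at the 95% level, in 9 of 27 groups of 4 to 6 libraries, where chance gives about 1 in 20 for values of a normal distribution. That rate does not hold for sparse UMI counts, and where every other library is at 0 a single UMI meets the criterion by construction, as in 3 of the 9. The Ucn3 level in inhibitory neurons was 2.56 CPM in female library 2 and 0 to 0.872 CPM in the others. In Crhr1-positive neurons Ucn3 was 4.59 CPM in female library 2 (others 0 to 1.31 CPM), in Crhr2-positive neurons 9.63 CPM in female library 1 (others 0 to 2.06 CPM), and in Crh-positive neurons 4.51 CPM in male library 2 (others 0 to 0.487 CPM).

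Crh in Ucn3-positive neurons was 327.5 CPM in male library 2, which had 5 such neurons, and 0 to 6.72 CPM in the others. In the same neurons Crhbp and Crhr1 were each 3.36 CPM in female library 2 and Crhr2 was 9.11 CPM in female library 1, with the other libraries at 0; each of these 3 values came from 1 UMI. Crh in Crhr2-positive neurons was 25.1 CPM in female library 1 and 0 to 4.18 CPM in the others.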

How the results depend on the processing

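Sparse receptor UMIs, the 59 Ucn3-positive neurons and the small female library 3 limit precision. With the replicate number as a block, sex calls became 316 in neurons, 448 in inhibitory and 454 in excitatory neurons. The labels do not say that female and male libraries of the same number were handled together. Without a low-count filter the sex calls were 16, 26 and 67. Counts of called genes in Crh-, Ucn3-, Crhbp-, Crhr1- and Crhr2-positive neurons were 411, 142, 626, 94 and 106 with DESeq2 and 161, 62, 128, 19 and 40 thinned. Without library as a block those of Crh, Crhbp, Crhr1 and Crhr2 were 294, 704, 6 and 138. Among excitatory neurons those of Crh, Ucn3, Crhr1 and Crhr2 were 191, 201, 45 and 109. Ucn3 from 1 UMI gave 186 and Crhr2 from 2 UMIs 146. Inhibitory against excitatory neurons gave 2060 calls without the block and 1967 thinned, and Crh there was 1.14 with DESeq2 and 0.59 without the block, neither called. Thinned, the sex difference of Crhr2 was -0.007731 and that of the Crhr1 share 0.03138 percentage points. Log odds of co-detection gave 7 pairs thinned and 0 at full depth, and say nothing, as stated above.

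Leaving out each library in turn, sex calls ranged from 4 to 7 in all cells, 7 to 11 in inhibitory and 6 to 16 in excitatory neurons. Sex differences ranged from -0.145 to 0.345 for Crh, -0.3551 to 1.742 for Ucn3, -0.0274 to 0.4862 for Crhbp and -0.1848 to 0.006671 for Crhr1. Those of positive shares, in percentage points, ranged from -0.009885 to 0.7464 for Crh, -0.09673 to 0.1373 for Ucn3, -0.1097 to 0.5924 for Crhbp, -0.6352 to 0.264 for Crhr1 and -0.3823 to 0.5873 for Crhr2. Crhr2 between neuron classes ranged from -0.1926 to 0.05653, and between its 2 highest classes from -0.6448 to 0.1026. Calls ranged from 563 to 973 in Crh-, 157 to 373 in Ucn3-, 913 to 1608 in Crhbp-, 135 to 314 in Crhr1- and 254 to 431 in Crhr2-positive neurons. Co-detection gave 0 pairs in each case.

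Directions turned as follows, the cause not tested. Thinned: Adcy5 in neurons against oligodendrocytes 0.04026, Pam in Ucn3-positive neurons -0.2378, Slc17a6 in Crhr2-positive neurons -0.4004 and Crh in Crhbp-positive neurons -0.261. Crh in Crhbp-positive neurons was also -1.033 with DESeq2, -1.101 without female library 2, -0.07962 from 1 UMI and -1.985 from 5 UMIs, against 0.8175 without female library 1, and Nts there was -0.05272 from 1 UMI. Among excitatory neurons alone, Crh-positive ones gave Cdkn1a 0.8963, Gad2 -0.2707, Gal 0.7014, Gpr83 -1.402, Meis2 -0.2477, Pde4d -0.0295, Scg2 0.7888, Sema3a -1.54 and Tac1 -0.6164. Ucn3-positive ones gave Adcyap1 -0.2511, Gad2 1.043 and Slc17a6 -0.9685. Crhr1-positive ones gave Coro6 -0.4757, Penk -1.561, Satb1 -1.137, Slc32a1 -0.4906 and Tac2 -2.077. Crhr2-positive ones gave Cartpt 0.03721, Gad1 -0.05452, Gad2 -1.031, Npy -0.8269, Slc17a6 -0.01573 and Sst -4.743. Among inhibitory neurons alone, Crhr2-positive ones gave Ucn3 1.28, Adcyap1 -0.0269, Cbln1 -0.6972, Slc17a6 -0.08884 and Trh -0.2864. From 2 UMIs, Crhr1-positive neurons gave Coro6 -0.8304, Gad2 -0.08988, Grp -10.54, Nacc2 -0.7046, Plpp4 -10.37, Satb1 -0.5633, Sln 2.097 and Tac2 -3.694, and Crhr2-positive neurons Cxcl14 -0.4404, Gad2 -0.01479 and Pld6 -0.2921. Ucn3-positive neurons could not be fitted among inhibitory neurons alone, nor Crhbp-positive ones among excitatory neurons alone. The excitatory-only fits were added after the data were seen.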
